A study of Arabidopsis thaliana with 16 samples.

Results

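The subject is the 6 lists of m6A peaks in this series, 3 from cold-treated and 3 from control seedlings of Arabidopsis thaliana, ecotype Col-0. They are 6 of the 16 samples, and were taken as the samples labelled as m6A immunoprecipitates; the other 10 are mRNA and polysomal RNA libraries of the same conditions. The names of the deposited lists carry the word Input, whereas the labels call the samples immunoprecipitates. The labels were followed, and which library was called against which is not given in the sources used here. Cold seedlings spent 24 h at 4 °C, and control seedlings were left untreated at their growth temperature of 22 °C. All were whole seedlings 20 days old, grown on agar plates in equal spans of light and dark, and the labels name no mutant or transgene. Per the labels' protocols, mRNA was broken into short fragments, and those carrying N6-methyladenosine were pulled down with an antibody (MeRIP). The lists hold peak positions with a strength and no read counts, so the depth behind a peak is unknown. The labels do not say whether the replicates are separate cultures. The p-values therefore describe the spread between these samples, which may be technical.

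N6-methyladenosine is laid down on mRNA by a writer complex around the methyltransferases MTA and MTB. It can be removed by demethylases of the ALKBH family, and is bound by reader proteins with a YTH domain, which in Arabidopsis include the ECT family. In plants as in animals the mark is known to lie mostly near stop codons and in 3′ UTRs. The writer recognises a core of 2 purines followed by A and C, and sequences starting with UGUA are known to be common near plant m6A sites.

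The cold lists held 23174, 26651 and 15383 peaks, and the control lists held 23335, 27275 and 27310. Lists of unequal length mark unequal numbers of genes, so the 15383 strongest peaks of each list, by the authors' −log10 p, were compared. In cold list 3 this takes every peak, down to a −log10 p of 1.303, whereas the weakest peak taken was at 2.42 and 2.73 in cold lists 1 and 2 and at 2.26, 2.71 and 2.74 in the control lists. The cold mRNA library with number 3 also stood apart, with 82.2% of its reads not uniquely aligned, against 61.9% to 66.3% in the other 5 mRNA libraries. The main counts of genes and sites are given with and without cold list 3. Without it, the 23174 strongest peaks per list were compared.

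The peaks in all 6 lists (143128 in sum) fell on messenger RNA. Of the peaks taken, 94.7% to 95.2% in cold lists and 94.4% to 95.4% in control lists had their summit in a sense exon of a nuclear coding gene. The gene lay on the strand opposite to the plus or minus in the peak's name in 98.4% of the summits that touch coding exons of 1 strand alone. Transcripts of floral organ identity genes (AP1, AP3, PI, AG and SEP3) were at 2.85 CPM or less in the mRNA libraries, and none of the 5 had a peak in any list.

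The sites that recur in all 6 lists show what a constant m6A site looks like. Summits of one gene within 100 nt of each other along the spliced transcript were joined into a site. The 8 such sites with the highest −log10 p in their weakest list are shown, because they are the strongest calls shared by cold and control. Each line is the 30 nt, within 50 nt of the site's median summit, that hold the most matches to the motifs named here, and capitals mark the matches. The consensus set is the 12 pentamers made of A or G, A or G, then A, then C, then A, C or T, such as GGACT and AAACT. The UGUA set is TGTA followed by A, C or T. Both were read on the gene's strand alone, and matches may overlap.

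AT3G45630: AAACTcctcatttcattactctatccaaat
SEH1H: gaaacgAAACActgtagcttAGACCcaaaa
SETH5: aGAACCatcaacaattaatgtTGTATatac
AT1G01710: aatgtcaatgtagcacgcTGTATGTACatt
AT5G27560: TGTAAccaaagggtattacTGTATatcttt
ABCD2: atttTGTATataatctaccAGACTtgacgt
TDX: aaagtactTGTAAttggttagatgacagat
PUM24: tatgacaAAACTgaAAACTaatccttgtca

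The sequences are from RefSeq's TAIR10.1, whose nuclear chromosomes are those of the authors' TAIR10, and all 8 lie in 3′ UTRs. The windows are chr3:16748231-16748260 (minus strand) in AT3G45630, chr1:23883200-23883229 (plus) in SEH1H, a nucleoporin gene, and chr4:337007-337036 (minus) in SETH5. They are chr1:266147-266176 (plus) in AT1G01710, chr5:9733698-9733727 (plus) in AT5G27560 and chr1:20290337-20290366 (plus) in ABCD2, which encodes an ABC transporter. They are chr3:6126209-6126238 (plus) in TDX, a thioredoxin gene, and chr3:5723317-5723346 (minus) in PUM24, of the Pumilio family of RNA-binding proteins. The median summits of the sites lay between 89 and 417 nt after the stop codon. Single summits of a site could lie further off. In TDX the strongest was at 113, 112 and 126 nt in the cold lists and 20, 111 and 23 nt in the control lists. The site in PUM24 had a −log10 p of 9.78, 9.85 and 10.2 in the cold lists and 13.6, 11.4 and 11.4 in the control lists, and its mRNA rose by 0.99 (log2, SE 0.198, edgeR adjusted p = 0.00832).

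The number of genes marked did not differ beyond the spread between lists. The cold lists marked 10659, 10345 and 10610 nuclear coding genes and the control lists 10379, 10573 and 10753, of 27444 annotated. The means were 10538 ± 169 in cold and 10568 ± 187 in control (SD, n = 3 each; exact permutation test, two-sided, p = 0.90). The groups overlap, and a test of 3 lists against 3 cannot give a p below 0.10. Of 14847 genes marked in at least 1 list, 5320 (35.8%) were marked in all 6 and 1644 (11.1%) in 1 alone.

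Peaks per marked gene overlapped between the groups too. They were 1.37, 1.41 and 1.38 in the cold lists and 1.41, 1.37 and 1.35 in the control lists (exact permutation p = 0.80). The share of marked genes with at least 2 peaks was 26.5%, 28.9% and 27.4% in cold and 29.6%, 27.0% and 25.7% in control (exact permutation p = 0.90). The transcripts with the most peaks were long ones that encode large proteins. NUA, a nuclear pore protein, had 5, 15 and 6 peaks in cold lists and 11, 11 and 8 in control lists. The cohesin gene TTN7 had 9, 12 and 8 peaks in cold lists and 8, 8 and 6 in control lists, and TTN8 had 8, 9 and 5 in cold and 6, 7 and 8 in control. The chromatin remodeller gene CHR5 had 9, 7 and 4 in cold and 8, 6 and 6 in control, and AT5G40450 had 10, 7 and 14 in cold and 9, 10 and 6 in control. In none of these 5 did the groups separate.

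Lists of one condition shared slightly more genes than lists of different conditions, with ranges that overlap. Any pair of cold lists had 67.5% to 70.8% of its marked genes in common, and any pair of control lists 65.4% to 67.4%. A cold and a control list shared 62.9% to 67.3% over the 9 pairs. At the level of sites the shares were 38.5% to 41.0% between cold lists and 35.2% to 37.6% between control lists, and 33.0% to 38.4% between a cold and a control list. The median site share was 38.7% between cold lists, 36.4% between control lists and 36.7% between a cold and a control list. Control lists thus shared no more sites with each other than with cold lists.

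Summits in both conditions gathered at the end of the coding sequence and in the 3′ UTR. Within 100 nt of the stop codon lay 29.96%, 27.49% and 30.44% of exonic summits in cold lists and 29.62%, 29.94% and 30.57% in control lists. The rest of the 3′ UTR held 23.8%, 24.6% and 27.7% in cold and 19.1%, 23.5% and 25.2% in control. The rest of the coding sequence held 42.4%, 44.2% and 37.8% in cold and 47.8%, 43.4% and 40.9% in control. For these 3 classes the groups overlap, with adjusted p from 0.625 to 0.70 (exact permutation tests, Benjamini-Hochberg over 5 classes). The median position relative to the stop codon was −55, −71 and −13 nt in cold lists and −116, −56 and −39 nt in control lists (exact permutation p = 0.50).

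**Figure D1:**
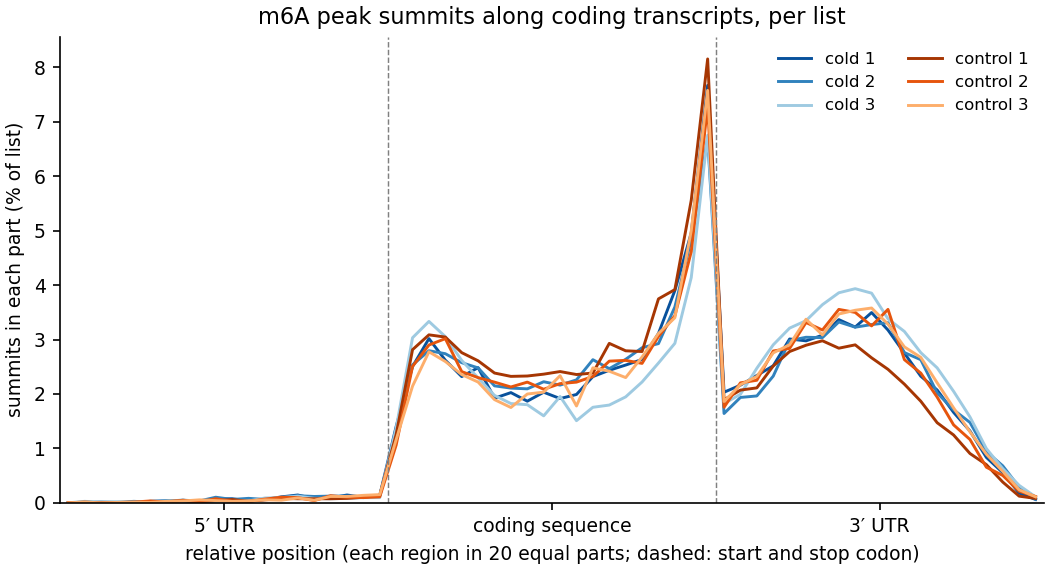
Share of exonic summits (%) in each of 20 equal parts of the 5′ UTR, the coding sequence and the 3′ UTR, 1 line per list, cold in blue and control in orange. In all 6 lists the highest part is the last of the coding sequence, with 6.70% to 7.67% of summits in cold lists and 7.29% to 8.16% in control lists.

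At equal length, the classes at the 5′ end were the 2 of 5 in which cold and control lists did not overlap, by a small amount. Upstream of the start codon window, the 5′ UTR held 0.602%, 0.707% and 0.581% of exonic summits in cold lists and 0.456%, 0.489% and 0.433% in control lists. These are 88, 103 and 85 summits in cold lists and 67, 71 and 63 in control lists. The window of 100 nt on either side of the start codon held 3.19%, 3.08% and 3.46% in cold and 3.03%, 2.76% and 2.87% in control. In both classes the lowest cold list was above the highest control list. Each had p = 0.10, the smallest that 3 against 3 lists allow, and an adjusted p of 0.25 over the 5 classes (exact permutation tests).

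The 5′ UTR values stayed apart between groups without cold list 3, at 0.667% and 0.868% in cold lists and 0.519%, 0.599% and 0.558% in control lists at the longer equal length that then applies. They overlapped when all deposited peaks were used, among peaks with q of at most 0.05 and when peaks were ranked by fold, at 0.668%, 0.950% and 0.581% in cold and 0.555%, 0.625% and 0.624% in control. The start codon window overlapped without cold list 3, at 4.02% and 3.67% in cold and 3.84%, 3.56% and 3.49% in control. It also overlapped with windows of 50 or 200 nt, at q of at most 0.05 and in genes marked in all 6 lists, and with all deposited peaks its difference turned to −0.0697 percentage points. Other classes were apart in other settings. With the 5000 strongest peaks the stop codon window held 35.3%, 31.9% and 34.1% in cold and 36.1%, 36.5% and 36.4% in control. With all deposited peaks the 3′ UTR held 19.1%, 18.6% and 27.7% in cold and 15.3%, 16.8% and 18.1% in control.

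**Figure D2:**
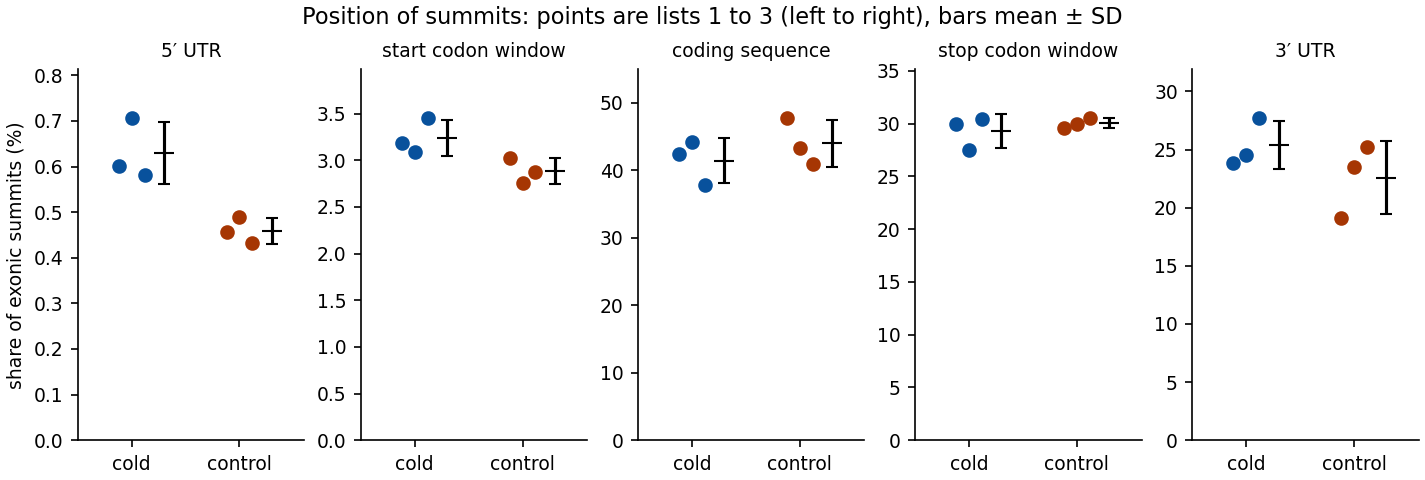
Share of exonic summits (%) in 5 position classes, cold left of control; points are lists 1 to 3 and bars show the mean ± SD (n = 3). The 5′ UTR and the start codon window are the 2 classes where the cold points all lie above the control points, and the y axes differ between panels.

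Few 5′ sites separated the conditions in every list. In the 5′ UTR, 1 site was in all 3 cold lists and no control list, 1 was the reverse and 9 were in all 6 lists, whereas 75 were in 1 cold list alone and 51 in 1 control list alone. Around the start codon, 12 sites were in the 3 cold lists alone, 13 in the 3 control lists alone and 26 in all 6. The 5′ sites present in cold lists alone include MYBL2, which encodes a MYB repressor of anthocyanin synthesis, MYC3, a jasmonate-response transcription factor gene, TET8, a tetraspanin gene, SRFR1 and CBSX6. Those in control lists alone include CAX3, a calcium exchanger gene, DFL1 and CHL-CPN10. These names were chosen after the values were seen. In genes with a 5′ site in cold lists alone, every mRNA change called by edgeR was a rise: AT1G53035, MYBL2 and AT3G13150. In genes with such a site in control lists alone, CAX3, TPPJ, AT4G38950 and NAPRT2 fell, and CT-BMY alone rose. The call of NAPRT2 was lost without control mRNA replicate 2. The other genes of both kinds were not called. Over all 19261 genes tested, 13.4% were higher and 12.3% lower in cold. Sites have no floor on mRNA, so a gene can enter through the condition where its transcript is high. AT1G53035, for 1, had a mean of 31.7 CPM in cold and 2.47 CPM in control. These mRNA counts are a description. The part of transcript level in these site calls was not tested. MYBL2 mRNA rose by 1.62 (log2, SE 0.33, edgeR adjusted p = 0.012), while TET8, MYC3, SRFR1 and CBSX6 mRNA did not pass the test. In genes with a site in control lists alone, CAX3 mRNA fell by 1.82 on the log2 scale (SE 0.23, adjusted p = 0.0015 by edgeR). CT-BMY, a chloroplast beta-amylase gene with such a site at the start codon, rose by 2.91 (SE 0.24, adjusted p = 2.21e-04 by edgeR).

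The sequences at 3 of the 5′ sites in cold lists alone are shown to place them against the start codon, with the same capitals as before.

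MYBL2: cactttgaaaaAGACAtGAACAAAACCcgc
TET8: tAAACCatggctcgttgtagcaacaatctc
MYC3: cattgGAACAAACCaccactcatctctctt

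They lie at chr1:26796212-26796241 (minus strand) in MYBL2, across its start codon, at chr2:10137329-10137358 (minus) in TET8, across its start codon, and at chr5:18974305-18974334 (plus) in MYC3, inside the coding sequence.

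Position went with how many lists shared a site. The 33733 sites were mostly in few lists: 13637 (40.4%) in 1 list alone and 3142 (9.31%) in all 6. From sites in 1 list to sites in all 6, the share in the coding sequence outside the codon windows was 65.5%, 58.1%, 49.9%, 40.7%, 32.1% and 19.2%. The share in the stop codon window was 19.0%, 22.6%, 26.8%, 30.8%, 36.1% and 39.8%, and in the rest of the 3′ UTR 9.77%, 14.7%, 18.9%, 25.1%, 29.5% and 39.9%. The start codon window held 4.84% of sites in 1 list and 0.827% of sites in all 6. Strength moved the same way, with a median −log10 p of 5.44 for summits at sites in all 6 lists and 3.32 at sites in 1 list. The part of strength in the change of position was not tested.

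**Figure D3:**
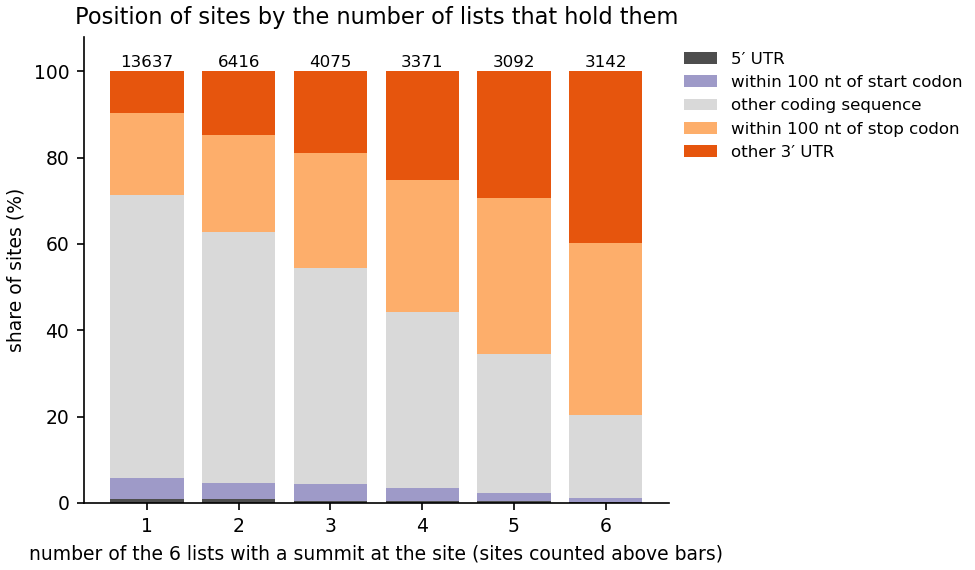
Share of sites (%) in each of 5 position classes, by the number of the 6 lists that hold the site, with the number of sites above each bar. Coding sequence shrinks from 65.5% at 1 list to 19.2% at 6 lists.

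The motif content of summits was close in the 2 conditions. A consensus pentamer lay within 50 nt of 78.0%, 76.9% and 76.6% of summits in cold lists and 79.1%, 78.1% and 77.3% in control lists. In windows of the same length elsewhere on the same transcripts, over 200 nt from any summit, the share was 70.7%. GGACT was near 4.73%, 4.51% and 4.17% of summits in cold lists and 4.88%, 4.66% and 4.45% in control lists, under its share of 6.30% elsewhere. AAACT was near 17.9%, 17.4% and 18.5% in cold and 17.6%, 18.3% and 17.9% in control, above 14.7% elsewhere. For TGTAA the shares were 16.8%, 16.9% and 18.0% in cold lists and 14.8%, 16.7% and 17.7% in control lists, against 8.01% elsewhere. TGTAC averaged 8.82% ± 0.313 in cold and 8.91% ± 0.538 in control, and TGTAT 15.3% ± 0.452 in cold and 14.5% ± 1.29 in control (SD, n = 3 each). The exact permutation p over lists was 0.20 or higher for the 6 motif measures, and 0.75 or higher adjusted over them.

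Windows elsewhere held TGTAA more often in 3′ UTRs than in coding sequence, so shares were also read within each region. In 3′ UTRs, TGTAA lay near 33.1%, 33.1% and 32.4% of summits in cold and 32.3%, 32.3% and 33.4% in control, against 20.96% of 8622 windows elsewhere in 3′ UTRs. In coding sequence it lay near 4.64%, 4.75% and 4.25% of summits in cold and 4.60%, 4.58% and 4.97% in control, against 6.28% of windows elsewhere. AAACT in 3′ UTRs was near 22.2%, 21.1% and 22.0% in cold and 21.9%, 22.8% and 21.7% in control, against 17.2% elsewhere. A match is a description of the window and does not place a methylated base.

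Around the summits of sites in all 6 lists the consensus set was densest just after the summit. In the 10 nt from the summit on there were 20.2 matches per kb in cold and 19.7 in control, while the 10-nt parts from 200 to 11 nt before it ranged from 13.2 to 17.3 in cold and from 13.5 to 16.5 in control. The UGUA set was densest in the 20 nt before the summit, at 9.26 and then 9.53 per kb in its 2 parts in cold and 9.35 and then 9.23 in control. Base composition also stepped at the summit itself: G or C was the base before it in 38.7% to 40.1% of cold and 38.5% to 41.0% of control summits, and the base at it in 48.7% to 50.7% of cold and 50.3% to 51.3% of control summits. The part of this step in the motif densities was not tested.

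Genes marked in one condition alone were few, and which genes these were depended on how deep the lists were read. Among 11082 coding genes with at least 10 CPM (reads in genes, scaled to library size) in both mRNA groups, 77 (0.695%) were in all 3 cold and no control list, called gained, and 50 (0.451%) were the reverse, called lost. Of the 77 gained genes, 55 had a peak in all 3 full control lists and 1 had none there. Cold list 3 was taken whole, so a lost gene cannot have a peak in all 3 full cold lists. Of the 50 lost genes, 28 had a peak in 2 of the full cold lists and 2 had none. The counts for gained and lost genes are therefore not a like comparison. With the 5000 strongest peaks per list there were 73 gained and 84 lost genes, of which 4 and 0 were among those 77 and 50. Without cold list 3 there were 35 gained and 46 lost genes, of which 3 and 3 were among them. Leaving out one of the other lists, which asks for 1 list fewer, gave 133 to 202 gained and 83 to 112 lost genes.

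The 3 genes with no peak at all in the full lists of the other condition are AT2G26340, gained, and pPLAIIIbeta and AT3G59300, lost. AT2G26340 had a best −log10 p of 4.65, 6.43 and 2.08 in the cold lists, with summits at −494, −495 and −54 nt from the stop codon. Its mRNA was at 40.7, 39.9 and 50.4 CPM in cold and 50.1, 48.3 and 44.6 CPM in control, groups that overlap. AT3G59300 had a best −log10 p of 9.25, 3.24 and 3.47 in the control lists, with summits at −1319, −1089 and −1022 nt from the stop codon. Its mRNA was at 16.7, 19.5 and 13.0 CPM in cold and 34.3, 50.7 and 33.4 CPM in control. That mRNA difference was −1.25 (log2, SE 0.22, edgeR adjusted p = 0.0051). pPLAIIIbeta, a patatin-related phospholipase gene, had 3.26, 3.72 and 3.53 in the control lists, with summits at 174, 170 and −50 nt. Its mRNA was at 19.2, 13.5 and 17.0 CPM in cold and 17.1, 20.0 and 23.3 CPM in control. In none of the 3 genes was a single site in more than 2 lists.

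Of 19261 genes tested for mRNA, 13.4% were higher and 12.3% lower in cold at an edgeR adjusted p under 0.05. Gained and lost genes have at least 10 CPM in both groups. Of all 11082 coding genes at that level 15.6% were higher and 10.7% lower, with a median log2 change of 0.05. Of the 77 gained genes, 10 were higher and 8 lower, with a median of 0.07, against −0.01 over all genes tested. With library totals this direction turned, to 7 higher and 11 lower and a median of −0.10, against −0.18 over all genes tested. Of the 50 lost genes, 1 was higher and 14 were lower, with a median of −0.56. The median mean CPM of gained genes was 51.1 in cold and 47.6 in control, and that of lost genes 15.5 in cold and 25.4 in control. The part of transcript level in the gained and lost calls was not tested.

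Translational efficiency (TE) compares polysomal RNA with mRNA, from 2 polysome libraries per condition; its change is the polysomal log2 change less the mRNA log2 change. Of 20001 genes tested, 0.065% were higher and 0.22% lower in TE. Of the gained and of the lost genes, 0 were called by edgeR in either direction, with 10 gained genes higher and 6 lower, and 3 lost genes higher and 4 lower, at an unadjusted p under 0.05. DESeq2 called 3 gained genes higher and 3 lower, and 2 lost genes higher, beside 0.767% higher and 1.24% lower of the 25434 genes it tested. The median log2 TE change was 0.02 for gained and −0.08 for lost genes, against −0.05 for all.

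Single sites gave a finer view than genes. Of the 33733 sites, 307 (0.91%) were in the 3 cold lists and no control list, and 273 (0.809%) in the 3 control lists and no cold list. In 23 genes there was one of each. The gained sites lay in coding sequence in 46.3% of cases, in the stop codon window in 25.4% and in the rest of the 3′ UTR in 24.1%, and the lost sites in 49.8%, 30.4% and 14.7%. Without cold list 3, at the longer equal length, there were 1096 gained and 692 lost sites.

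Genes with a gained site were more often higher in mRNA in cold than lower, and genes with a lost site more often lower. Of 302 genes with gained sites that were tested, 95 (31.5%) were higher and 15 (4.97%) lower in mRNA, with a median log2 change of 0.28. Of 268 genes with lost sites, 24 (8.96%) were higher and 74 (27.6%) lower, with a median of −0.38. Genes with a site in all 6 lists had 17.4% higher and 7.60% lower of 3015, and a median of 0.10. With library totals in place of TMM, which moved the median of all genes to −0.18, the gained-site genes had 20.9% higher and a median of 0.11, and the lost-site genes 32.8% lower and a median of −0.54. The genes with a site in all 6 lists then turned direction, with 7.03% higher and 9.45% lower and a median of −0.07. Without cold mRNA library 3 the shares were 30.1% higher and 25.4% lower. Sites have no floor on mRNA, and at 10 CPM or more in both groups the higher and the lower shares lay nearer each other. Of 234 genes with gained sites at that level 51 (21.8%) were then higher and 15 (6.41%) lower, with a median of 0.17, and of 166 with lost sites 22 (13.3%) were higher and 29 (17.5%) lower, with a median of −0.12. Of all 11082 coding genes at that level 15.6% were higher and 10.7% lower, with a median of 0.05. The part of transcript level in the site calls was not tested.

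**Figure D4:**
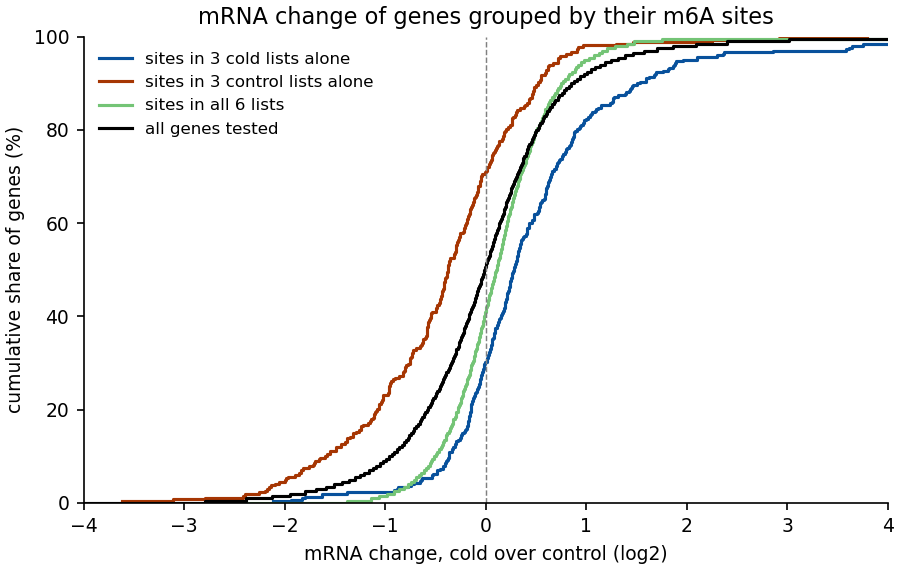
Cumulative share of genes (%) by mRNA change, cold over control (log2, edgeR), for genes with sites in the 3 cold lists alone (302), in the 3 control lists alone (268), in all 6 lists (3015) and for all 19261 genes tested. The cold-only line is shifted to the right of all genes (median 0.28) and the control-only line to the left (median −0.38); changes beyond 4 on either side are not drawn.

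Many of these sites were not empty in the other condition. Of the 307 gained sites, 39 had no peak of any full control list across them, and of the 273 lost sites 94 had none of any full cold list. The full cold list 3 adds no weaker peaks, so the counts for gained and lost sites are not a like comparison. With no summit within 100 nt and no peak across the site in the full lists of the other condition, 31 gained sites in 30 genes and 86 lost sites in 86 genes were left. This stricter rule was added after the data were seen. It has no floor on mRNA, so a gene with next to no transcript in one condition can enter through the other alone, and the mRNA counts are a description. The floor of 10 CPM was also applied to sites after the data were seen. Of the 30 genes with these gained sites, 7 had at least 10 CPM in both groups, of which 2 were higher and 0 lower in mRNA. Of the 86 with lost sites, 29 had that level, of which 4 were higher and 8 lower. The rule left 499 gained and 373 lost sites when cold list 3 was left out. At 10 CPM or more in both groups, 254 genes with these gained sites then had 88 (34.6%) higher and 14 (5.51%) lower in mRNA. The 186 genes with lost sites at that level had 16 (8.60%) higher and 57 (30.6%) lower. Of all 11082 coding genes at that level 15.6% were higher and 10.7% lower.

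The 6 strongest of these gained sites were in genes with a mean of 0.299 to 3.21 CPM in control. AT5G25210 had a −log10 p of 9.94, 7.52 and 6.95 in the cold lists at 64, 64 and 65 nt after the stop codon, and a mean of 7.79 CPM in cold and 2.43 CPM in control. COR27, a cold- and clock-regulated gene that acts on the evening clock genes, had 5.91, 5.88 and 4.70 in the cold lists, at 138, 133 and 138 nt after the stop codon. Its mRNA was at 78.8, 133 and 65.9 CPM in cold and 0.552, 0.175 and 0.169 CPM in control, groups far apart (log2 8.30, SE 0.46, edgeR adjusted p = 6.12e-05). PRR3, a pseudo-response regulator of the clock, had 6.45, 4.35 and 4.26 in the cold lists and a mean of 10.6 CPM in cold and 0.43 CPM in control. Outside the 6 strongest, DREB2B, a transcription factor gene of the drought and heat response, had a mean of 10.11 CPM in cold and 0.537 CPM in control. Not all of these genes were low in control. MAPKKK6 and AT3G13510, whose sites were stronger than that of DREB2B, had means of 21.6 and 48.8 CPM in cold. In control they had 18.8 and 37.2 CPM, and neither change was called by edgeR.

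Of the 6 strongest of these lost sites, 4 were in genes whose mRNA fell: EGY3, NPSN11, GA3 and AT3G62330. The call of GA3 was lost in 8 alternative fits, DESeq2 among them, and that of NPSN11 in 3 that leave out 1 library. EGY3, of a family of chloroplast membrane proteins, had 6.04, 7.04 and 5.55 in the control lists, at −1298, −1299 and −1333 nt from the stop codon, with a mean of 4.83 CPM in cold and 13.3 CPM in control. The SNARE gene NPSN11 had 7.02, 6.27 and 5.05 in the control lists and a mean of 7.32 CPM in cold and 15.5 CPM in control. AT3G02420 had 5.47, 5.70 and 5.79 in the control lists and a mean of 34.9 CPM in cold and 24.2 CPM in control, a call (log2 0.52) lost in 10 alternative fits. NdhO, a subunit of the chloroplast NADH dehydrogenase-like complex, lost a site with mRNA at 79.6 CPM in cold and 77.2 CPM in control. TPS-CIN (AT3G25830) had the strongest lost site, but it has a near-identical copy and was counted at 0 CPM in both conditions, so its site cannot be read against its mRNA.

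The sequences at 5 of these sites are shown, the first 3 from gained and the last 2 from lost sites, chosen as the 30 nt richest in matches.

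AT5G25210: aaAAACAgatatttTGTATtgattgtctat
COR27: gtgagtggattcattTGTACTGTAAAACCc
PRR3: tgcacccaacaagaaagGAACCtatgaaaa
EGY3: caaggagctGAACAaggaaagcaacagtga
NPSN11: agatcttttcgatGGACCtggagaaGAACA

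They lie at chr5:8725709-8725738 (plus strand, 3′ UTR of AT5G25210), chr5:17198194-17198223 (minus, 3′ UTR of COR27) and chr5:24199317-24199346 (minus, coding sequence of PRR3). The lost ones are at chr1:6151749-6151778 (minus, coding sequence of EGY3) and chr2:14831669-14831698 (plus, coding sequence of NPSN11). Each holds at least 1 consensus pentamer, but not all of the strongest sites do. The stretch picked in the same way at the gained site of PXMT1 holds TGTAT alone, and that at the lost site of AT3G02420 holds no match. Since each stretch is the richest near its site, the 70.7% of windows elsewhere with a consensus pentamer are not a like comparison.

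In 5320 genes marked in all 6 lists the strongest summit could be compared. In 462 of them (8.68%) its position was apart between the groups, nearer the 3′ end in cold in 296 and nearer the 5′ end in 166. The difference was over 100 nt in 305, toward the 3′ end in 190 and toward the 5′ end in 115. For 1 gene, 3 lists against 3 cannot give a p below 0.10, so no single gene is called by this. With cold list 3 left out the position was apart in 1734 of 9955 genes (17.4%), by 2 lists against 3, nearer the 3′ end in cold in 946 and nearer the 5′ end in 788. The 5 genes with the largest difference follow, with the position of the strongest summit in each list.

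MSH6, a DNA mismatch repair gene, had its strongest summit at −3752, −3798 and −3693 nt from the stop codon in the cold lists, and 202, 206 and 202 nt after it in the control lists. RCF1, an RNA helicase gene needed for cold tolerance, had it at −2710, −2623 and −2622 nt in cold and at 892, 871 and 895 nt in control. GTA2, which encodes a transcription elongation factor, had it at −1024, −2939 and −2784 nt in cold and at 25, −8 and −9 nt in control. In these 3 the strongest summit was nearer the 5′ end in cold, but the places were not particular to a condition. The cold place of MSH6 and of RCF1 also had a summit in 2 control lists each, and their control place in 1 cold list each. The control place of GTA2 had a summit in all 3 cold lists, and its cold place in 1 control list. In these 3 genes the lists differed in which of the peaks was strongest. These genes carried several peaks each: GTA2 had 4, 5 and 5 in cold and 3, 4 and 3 in control, RCF1 had 3, 3 and 3 in cold and 1, 5 and 3 in control, and MSH6 had 3, 2 and 2 in cold and 1, 2 and 3 in control. CALS1, a callose synthase gene, went the other way, at 124, 224 and 234 nt in cold and −2074, −2085 and −2290 nt in control. Its cold place had a summit in all 3 cold lists and 0 control lists, and its control place in 0 cold lists and 2 control lists. TPP2, a peptidase gene, had −399, −127 and −285 nt in cold and −3109, −3108 and −2052 nt in control. The 30 nt centred on the median strongest summit of MSH6 in cold, then in control, show the 2 places, each of which has summits in both conditions.

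MSH6 in cold: cccaaattGAACCctaaccctagttctaat
MSH6 in control: tcatactcTGTATagtagaggatcggtaat

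They are chr4:906286-906315 in the coding sequence and chr4:913117-913146 in the 3′ UTR, both on the plus strand.

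The number of peaks per gene was apart between groups in 495 of 14847 marked genes (3.33%), with more in cold in 236 and fewer in 259. With cold list 3 left out it was apart in 1172 of 15959 (7.34%), with more in cold in 646 and fewer in 526. XIK, a class XI myosin gene, had 5, 4 and 4 peaks in cold lists and 9, 6 and 8 in control lists. The disease resistance gene RLM3 had 5, 7 and 6 in cold and 3, 3 and 2 in control. CIL had 4, 3 and 4 in cold and 1, 0 and 0 in control, with mRNA up by 2.86 (log2, SE 0.31, edgeR adjusted p = 8.60e-04). The transporter gene ABCG35 had 1, 1 and 0 in cold and 4, 4 and 3 in control, and AT2G39280 had 0, 0 and 1 in cold and 4, 3 and 3 in control. XIK mRNA fell by 0.69 on the log2 scale (SE 0.14, adjusted p = 0.0083).

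Most transcripts of the m6A machinery were themselves marked in both conditions. Of 8 writer genes, 6 were marked in all 6 lists; of 5 eraser genes 2; and of 12 reader genes 7. At 10 CPM or more in both mRNA groups these were 6 of 7 writer, 2 of 2 eraser and 6 of 11 reader genes. By comparison, 43.2% of the 11082 coding genes at that level were marked in all 6 lists. No writer, eraser or reader gene was gained or lost.

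Among the writers, MTA had 2 peaks in each of the 6 lists, and MTB (AT4G09980) had 2, 2 and 3 in cold and 2, 2 and 1 in control. FIP37 and HIZ1 (AT1G32360), subunits of the complex, had 1 in each list. VIR (AT3G05680), a large subunit, had 2, 2 and 2 in cold and 1, 2 and 1 in control. HIZ2 (AT5G53440) had 2, 4 and 6 in cold and 4, 3 and 4 in control, and the E3 ligase gene HAKAI (AT5G01160) 1, 1 and 1 in cold and 1, 0 and 0 in control, with a peak in all 6 full lists. FIO1, a separate methyltransferase gene, had 0 in each list at a mean of 5.18 CPM in cold and 5.59 CPM in control. MTB was the 1 writer whose mRNA rose, at 59.2, 54.6 and 70.0 CPM in cold and 32.8, 33.8 and 36.8 CPM in control (log2 0.82, SE 0.15, edgeR adjusted p = 0.0062).

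Among the erasers, ALKBH10B (AT4G02940) had 3, 1 and 1 peaks in cold lists and 2, 2 and 4 in control lists, and ALKBH9C (AT4G36090) had 1 in each list. ALKBH9B (AT2G17970) had 1, 0 and 0 in cold and 1, 1 and 1 in control, and in the full lists 1, 0 and 0 in cold and 2, 2 and 2 in control. ALKBH9A (AT1G48980) and ALKBH10A (AT2G48080) had 0 in each. ALKBH10A was the 1 eraser whose mRNA rose, at 5.01, 4.84 and 6.67 CPM in cold and 2.87, 1.92 and 1.101 CPM in control (log2 1.46, SE 0.38, edgeR adjusted p = 0.024), a call lost in 3 fits that leave out 1 library.

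Among the readers, ECT2 had 3, 3 and 2 peaks in cold and 3, 4 and 2 in control. ECT3 had 1, 2 and 3 in cold and 2, 2 and 2 in control, ECT4 had 1, 2 and 2 in cold and 1, 1 and 2 in control, and ECT9 had 1 in each list. ECT5 had 1, 1 and 1 in cold and 2, 1 and 1 in control, and ECT8 had 2, 2 and 3 in cold and 1, 1 and 3 in control. CPSF30, whose long form carries a YTH domain, had 2, 3 and 3 in cold and 3, 2 and 3 in control. ECT6 was unmarked in cold list 3, ECT10 in cold list 1 and control list 2, ECT11 in control list 2, and ECT1 and ECT7 in control list 3. ECT4 mRNA rose, with 81.3, 74.8 and 67.8 CPM in cold and 32.1, 31.9 and 32.6 CPM in control (log2 1.21, SE 0.13, edgeR adjusted p = 7.70e-04). ECT1, ECT2 and ECT3 mRNA were higher by 0.72 (SE 0.16), 0.57 (SE 0.14) and 0.66 (SE 0.21), calls that were each lost with library totals and without cold or control mRNA replicate 2. ECT3 lost its call in 7 alternatives in all.

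**Figure D5:**
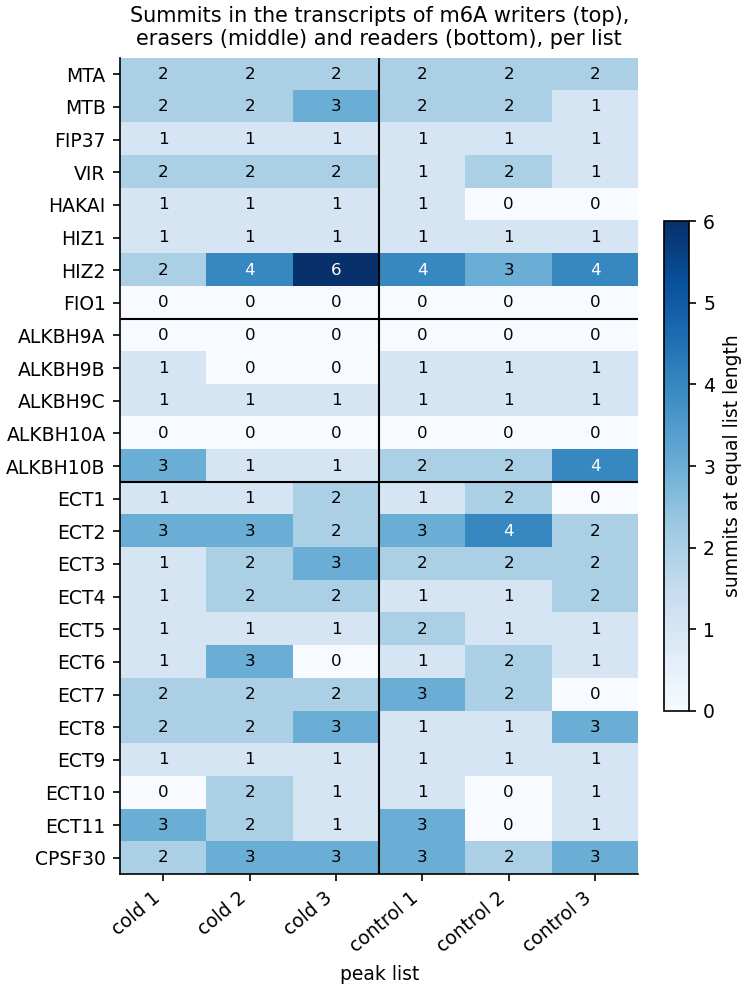
Number of summits per list in the transcripts of 8 writer, 5 eraser and 12 reader genes at equal list length, cold lists left of control lists. MTA, FIP37, HIZ1, ALKBH9C and ECT9 have the same count in all 6 lists, and FIO1, ALKBH9A and ALKBH10A have 0.

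The cold-regulated genes in cold lists alone had little transcript in control. Of the 24 genes of the COR and LEA list, which encode proteins that build up in the cold, 3 were in the 3 cold lists alone: COR27, COR28 (AT4G33980) and GOLS3, a galactinol synthase gene. COR28 had a −log10 p of 6.04, 13.0 and 2.62 in the cold lists, with mRNA at 35.0, 48.6 and 42.2 CPM in cold and 0, 0 and 0.254 CPM in control. GOLS3 had 2.58, 4.57 and 3.04, with mRNA at 147, 227 and 93.3 CPM in cold and 1.54, 3.15 and 7.46 CPM in control. Over the list, 16 of 24 genes rose in mRNA and 0 fell, beside 13.4% higher and 12.3% lower of all 19261 genes tested. The number of genes marked was 11, 13 and 15 in cold lists and 11, 13 and 13 in control lists. It was 20 and 18 in cold and 17, 17 and 17 in control without cold list 3. All genes marked then numbered 13271 and 13056 in cold and 12955, 13303 and 13470 in control. The difference was not tested.

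Other transcripts of the list were marked in control as well. KIN1 was marked in all 6 lists at one place, −63, −64 and −66 nt from the stop codon in cold and −58 nt in the 3 control lists. Its mRNA was at 641, 487 and 441 CPM in cold and 9.82, 12.8 and 18.0 CPM in control, and its −log10 p at 2.51, 3.82 and 1.46 in cold and 7.61, 4.89 and 6.09 in control. COR413IM2 was marked in all 6 lists 68 or 69 nt after the stop codon. COR15A, which encodes a chloroplast protein that protects membranes, had 0, 0 and 1 peaks in cold and 2, 2 and 1 in control, and RD29A 0, 1 and 3 in cold and 3, 2 and 1 in control. ERD14 had 1, 1 and 2 in cold and 1, 1 and 1 in control. KIN1 and COR15A each have a near-identical neighbour, so their counts are uncertain.

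The 30 nt richest in matches near the site of KIN1 are shown, because the site is the same in both conditions at very different transcript levels.

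KIN1: gtgttaacttcgtgaaGGACAAGACCggcc

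This stretch lies at chr5:5210433-5210462 on the plus strand, in the coding sequence, from −40 to −11 nt from the stop codon. It is downstream of the summits of every list and holds none of them.

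The number of circadian clock genes marked overlapped between the groups at equal length. Of 25 clock genes, 18, 12 and 21 were marked in cold lists and 15, 10 and 13 in control lists. Without cold list 3 the counts were 21 and 19 in cold and 18, 15 and 16 in control, which do not overlap. All genes marked then numbered 13271 and 13056 in cold and 12955, 13303 and 13470 in control, which overlap. The full lists, of unequal length, marked 21, 21 and 21 in cold and 18, 16 and 17 in control, while they marked 13271, 13835 and 10610 genes in all in cold and 12988, 14266 and 14425 in control. The difference was not tested. Of the 25 genes, 10 rose in mRNA and 3 fell, beside 13.4% higher and 12.3% lower of all 19261 genes tested. FKF1, a blue-light receptor gene, was marked in 2 cold lists and no control list, with mRNA at 51.5, 43.8 and 66.3 CPM in cold and 0, 0.0875 and 0.847 CPM in control. LUX was also in 2 cold lists and no control list, and RVE1 in 3 cold lists and 1 control list, though in all 6 full lists. LNK1 had 3, 1 and 4 peaks in cold and 4, 2 and 3 in control, and LHY 4, 1 and 4 in cold and 2, 3 and 2 in control.

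Photosynthesis genes were rarely marked at equal length, and their counts went with cold list 3. Of 30 genes, 4, 5 and 15 were marked in the cold lists and 1, 3 and 2 in the control lists, and none in all 6. With cold list 3 left out the counts were 20 and 13 in cold and 15, 17 and 14 in control. In the full lists the counts were 20, 21 and 15 in cold and 15, 25 and 22 in control, which overlap. PSAF, PSAE1 and RBCS3B were each in cold lists 2 and 3 and no control list at equal length. In the full lists PSAF and PSAE1 had a peak in all 3 control lists and RBCS3B in 1. PSBQ1 was in 2 cold and 2 control lists, and LHCB4.2 in 2 cold lists and 1 control list, and in 2 cold and 3 control full lists.

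Among cold regulators, 7 of 24 were marked in all 6 lists. ICE2, a transcription factor gene upstream of the CBF genes, had 3, 3 and 2 peaks in cold and 2, 3 and 5 in control, and CAMTA3, a calmodulin-binding activator gene, 2, 3 and 2 in cold and 2, 3 and 3 in control. CAMTA3's strongest summit was 68, 71 and 73 nt after the stop codon in cold and 71, 68 and 73 nt after it in control. PIF3, RAV1 and CRPK1 (AT1G16670) differed in the number of lists that marked them by 1 list.

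Among lipid genes, DGAT1, which makes the last step of triacylglycerol synthesis, had 1, 2 and 1 peaks in cold and 0, 0 and 1 in control. The best −log10 p of the gene was 6.02, 6.71 and 8.21 in cold, at 158, −1630 and 218 nt from the stop codon. It was 5.03 in control list 3, at 151 nt. DGAT1 mRNA was at 40.9, 43.7 and 30.7 CPM in cold and 4.75, 5.16 and 2.54 CPM in control (log2 3.22, SE 0.27, edgeR adjusted p = 2.79e-04). A site in the 3′ UTR, 158 nt after the stop codon at the median, was in 4 lists. The 6.71 of cold list 2 is not from this site. ACBP6, an acyl-CoA-binding protein gene, was in the 3 cold lists and no control list at equal length, and in all 3 full control lists. Its mRNA was at 154, 146 and 143 CPM in cold and 225, 212 and 181 CPM in control, a difference of −0.48 (SE 0.14, adjusted p = 0.034) that lost its call in 5 of the 6 fits that leave out 1 library. SFR2, a gene of membrane lipid remodelling in freezing, was in 1 cold list and 3 control lists at equal length, and in all 6 full lists. MGD1 had 2 peaks in each cold list and 2, 2 and 3 in control, and FAD8 2, 1 and 2 in cold and 1, 1 and 2 in control.

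Of the RNA-binding and translation genes, 5 of 20 were marked in all 6 lists, among them RCF1 and the initiation factor gene EIF4G, which had 3, 2 and 4 peaks in cold and 3, 2 and 3 in control. The poly(A)-binding protein gene PAB8 and the cold shock protein gene CSP4 were in 1 cold list and 3 control lists, with mRNA higher in cold by 0.97 (SE 0.16, adjusted p = 0.00412 by edgeR) and 0.83 (SE 0.18, adjusted p = 0.011). In the full lists both had a peak in all 6 lists. The helicase gene LOS4 was in 3 cold lists and 1 control list, and in all 6 full lists. Of 20 abscisic acid genes, 4 were marked in all 6 lists. The transcription factor gene ABF1 was in 3 cold lists and 1 control list, at 135 to 137 nt after the stop codon in cold and 132 nt in control, with mRNA higher by 4.999 (log2, SE 0.454, edgeR adjusted p = 7.58e-04). PYL6 and PP2CA, a receptor and a phosphatase gene of the pathway, differed by 1 list. ABF4 had 2, 2 and 1 peaks in cold and 3, 1 and 1 in control, and the kinase gene SNRK2.2 1, 3 and 1 in cold and 1, 1 and 1 in control. Of the 6 root markers SCR was marked in all 6 lists, with 3, 1 and 3 peaks in cold and 2, 1 and 1 in control, and PYK10 was in 2 cold and 2 control lists.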

How the data were processed

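The members and gene lists were chosen with earlier results of these data known. The submitters' processing notes name STAR, HTSeq, MACS2 and TAIR10, with neither versions nor roles; the lists have MACS2's columns and strand-wise peak names. The authors deposited 1 list per sample, with a score, a fold enrichment (ratio), a −log10 p and a −log10 q per peak. These values are the authors' own and rank peaks only within a list. The library the caller compared with is not given in the sources used here. Each deposited mRNA or polysome file holds a read count for every gene and, in its last lines, reads not assigned to one. These last, among them reads aligned to several places, stayed out of library sizes.

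Summits were placed on 1 transcript per gene (longest coding sequence, RefSeq TAIR10.1), on the strand opposite to the peak name; of 5000 simulated positions, 100% were read back. The 144 summits in exons of 2 coding genes went to the first by locus. Gene reads were 3282574 to 10965304 per mRNA library and 12984431 to 22200225 per polysome library. mRNA and TE were tested with edgeR 4.0.16 (quasi-likelihood, robust, TMM, filterByExpr, Benjamini-Hochberg over all genes tested, 0.05) in R 4.3.3, with DESeq2 1.42.0 as an alternative; TE came from 1 interaction model over the 10 libraries. Both fits were tested on simulated counts with 200 changed genes. CPM are TMM-scaled. Lists were compared by two-sided exact permutation tests.

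Genes were named by a rule: gained or lost with no peak in the other group's full lists, every m6A machinery gene, DGAT1, from each other list up to 3 genes by difference in lists marked and 2 by peaks per list, and up to 5 each by summit position, peaks per gene and their difference. Genes named for 5′ or strong sites, KIN1, COR15A and COR413IM2 were chosen after their values were seen.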

Additional observations from a re-analysis of the deposited data

How the results depend on the processing

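Differences are cold minus control. The numbers of genes marked, peaks per gene and the share of genes with 2 or more peaks have no stable direction. Ranked by fold they were 99.3 genes, −0.0080 and −0.494 percentage points; with all deposited peaks, peaks per gene and that share were −0.151 and −7.10, and at q of at most 0.05 −0.0222 and −1.90. Leaving out each list in turn gave −125 to 66.2 genes, −0.00739 to 0.0228 peaks and −0.661 to 1.295 points. With all deposited peaks the start codon window was −0.0697 and the stop codon window 1.19 points, with windows of 200 nt the stop codon window was 0.727, and without each list it was −1.08 to 0.157. AAACT was −0.438 with 5000 peaks, −0.0631 within 100 nt and −0.318 to 0.266 without each list. TGTAC was 0.503 with all peaks, 0.0610 at q of at most 0.05, 0.0680 within 100 nt and −0.372 to 0.161 without each list. Gained genes numbered 4 with all peaks, 26 at q of at most 0.05, 149 without a CPM floor, 36 at 50 CPM, 1 absent from full lists, and 35 to 202 without each list. Lost genes numbered 138 at q of at most 0.05, 84 with 5000 peaks, 28 by fold, 180 without a floor, 3 at 50 CPM, 2 absent from full lists, and 46 to 112 without each list. Gained sites numbered 110 with 5000 peaks and 566 to 1096 without each list; lost sites 674 with all peaks, 118 with 5000 and 433 to 826. Without cold list 3 the stricter rule left 499 gained and 373 lost sites, and 1734 genes had the strongest summit and 1172 the number of peaks apart. Gained-site genes higher in mRNA were 20.9% with library totals, and lost-site genes lower 12.2% with 5000 peaks and 17.5% at 10 CPM or more in both groups. Without each mRNA library 6 to 11 gained genes were higher and 3 to 9 lower in mRNA, and 0 to 1 lost genes higher; without each mRNA or polysome library 0 to 1 gained genes were higher, 0 to 1 lower and 0 to 1 lost genes higher in TE. DESeq2 called 3 gained genes higher and 3 lower and 2 lost genes higher in TE. The causes were not tested. Site settings, that floor for sites, the stricter rule, its counts without cold list 3 and those of genes apart were chosen after seeing the data.

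Deviations from group means correlated between same-numbered cold and control samples at −0.0374, −0.0224 and 0.217 in mRNA. In the genes marked by the peak lists they correlated at 0.00518, 0.0278 and 0.00471. Replicate numbers thus did not pair the peak lists, while the mRNA libraries with number 3 went together to some degree. With the replicate block, 0 lost genes were higher in mRNA (also 0 with library totals) and 1 was higher in TE, and the 5′ UTR difference was 0.171 points, with a smallest possible p of 0.25. Of 117 called mRNA changes of named genes, 68 were called in every alternative fit run.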
